A study of Drosophila melanogaster with 3 samples.

Results

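The nuclear respiratory chain genes were taken as the genes on the chromosome arms of the Ensembl annotation of Release 6 (dm6) whose symbol starts with ND-, COX, UQCR-, ATPsyn or Sdh. This rule found 88 genes, all protein-coding, of 18164 genes on the arms, of which 13945 were protein-coding. They comprised 63 genes for subunits of complexes I to V, 24 paralogs whose symbol ends in L, with or without a number (ND-MNLL, a subunit gene, excepted), and 1 gene for an assembly factor, Sdhaf3. Subunit genes numbered 34 for complex I, 4 for complex II, 6 for complex III, 8 for complex IV and 11 for complex V. A peak was counted for a gene when its summit, the position of highest signal, lay within 500 bp of any annotated transcription start site (TSS) of that gene, and this is called its promoter here.

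The study mapped the chromosomal protein HmgD, whose HMG box bends DNA and shows little preference for particular sequences, by chromatin immunoprecipitation and sequencing (ChIP-seq). The single group held 3 biological replicates of whole Drosophila melanogaster embryos of both sexes, aged 0 to 24 h, from the HmgD-GFP strain. This transgenic line stably carries HmgD with green fluorescent protein fused to its C terminus, and precipitation used an antibody against that tag. No other genotype, age or treatment was part of the comparison, so the lists hold no contrast between conditions, and every value stands for a mixture of all embryonic cell types and stages. What drives expression of the fusion protein was not given in the sources read.

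The mitochondrial respiratory chain passes electrons from NADH (complex I) and succinate (complex II) through complex III to oxygen at complex IV, and ATP synthase (complex V) uses the proton gradient that this builds up. Some subunits are encoded in mitochondrial DNA, but most are encoded in the nucleus, imported into the organelle and assembled there, and their genes are expressed in nearly all cells. Flies also carry paralogs of many of these genes, and such copies are known for expression in the testis.

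Each replicate had a list of 28193, 30000 and 30000 candidate peaks for replicates 1, 2 and 3, which by design holds background entries. The pooled alignments gave 30000 candidates, and 2964 of these formed the list that passed the irreproducible discovery rate (IDR) step, a filter for agreement between replicates. At the respiratory chain genes, those kept were the ones among the 2964 of highest pooled signal. The signal of a peak is the authors' own value, and since its scale differs between lists, levels are read here only by rank within a list. The lists hold no read counts, so the depth of each replicate is unknown. Several genes can share 1 peak, so genes are not independent of each other.

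Of the 88 respiratory chain genes, 21 had an IDR peak at the promoter, a share of 23.9% (95% Wilson interval 16.2 to 33.7%). Over all genes on the arms the share was 15.5%, and over protein-coding genes it was 18.7%, which lies inside the interval of the respiratory chain genes. All 21 were subunit genes, which makes 33.3% of the 63 subunit genes (22.9 to 45.6%). None of the 24 L paralogs had an IDR peak, which allows a share of up to 13.8% by the same interval, but 1 had one with a promoter window of 1000 bp and 1 when any overlap of the peak interval with the window counted. A pooled candidate of any strength lay at the promoter of 64 of the 88 genes, or 72.7%, against 49.8% of all genes and 56.0% of protein-coding genes. Subunit genes again carried this difference, with a candidate at 58 of 63 (92.1%), whereas 5 of 24 paralogs (20.8%) had one.

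The subunit genes were spread over all strengths rather than gathered at the top of the list. The strongest promoter candidate was within the 2964 IDR peaks for 21 subunit genes, between ranks 2965 and 6000 for 17 (27.0%, against 11.2% of protein-coding genes), and at a lower rank for 20 (31.7% against 26.1%). The remaining 5 subunit genes had no candidate (7.94% against 44.0%). Among genes with a candidate, the median signal was 92.9 for subunit genes, 59.8 for the 5 paralogs and 85.4 for protein-coding genes. Subunit genes therefore differed from protein-coding genes more in having a candidate at all than in how strong it was.

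Complexes differed in their counts of IDR peaks, but each count is small. An IDR peak was at 9 of 34 subunit genes of complex I (26.5%, interval 14.6 to 43.1%), 1 of 4 of complex II, 2 of 6 of complex III, 4 of 8 of complex IV (21.5 to 78.5%) and 5 of 11 of complex V (45.5%, 21.3 to 72.0%). These intervals overlap. All subunit genes of complexes II, IV and V had a candidate, and the 5 without one belonged to complex I (4 genes) and complex III (1 gene). The plot of signal by complex shows the same spread gene by gene.

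**Figure D1:**
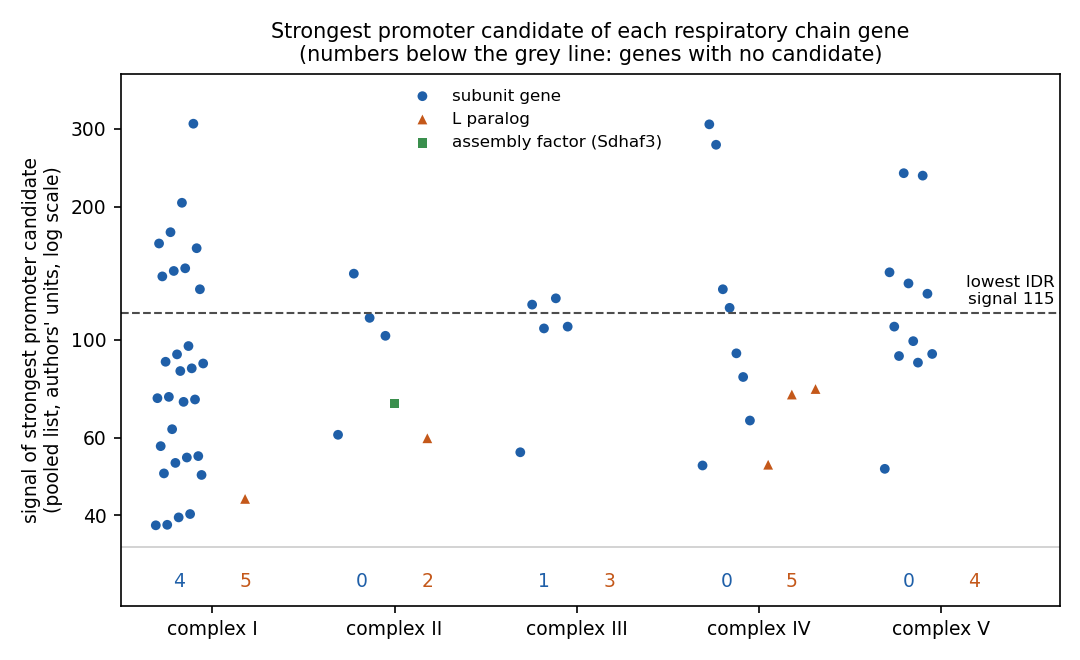
Signal of the strongest pooled candidate at the promoter of each respiratory chain gene (authors' units, log scale), by complex; circles are subunit genes, triangles L paralogs and the square is Sdhaf3, and the dashed line is the lowest signal in the IDR list (115). Points above the line are the 21 genes with an IDR peak, ND-MWFE (308) and COX6B (307) being the highest; numbers under the grey line count genes with no candidate (blue, subunit genes; orange, paralogs).

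The replicates did not give the same share. Each replicate list was cut to its 2964 strongest candidates, as many as the IDR list holds. Such a candidate lay at the promoter of 30 subunit genes in replicate 1 (47.6%), 19 in replicate 2 (30.2%) and 13 in replicate 3 (20.6%), a mean of 32.8% ± 13.7 (SD, n = 3). For protein-coding genes the shares were 20.5%, 17.9% and 16.6%. Subunit genes were above protein-coding genes in all 3 replicates, by the largest margin in replicate 1 and the smallest in replicate 3. For all 88 genes the counts were 30, 20 and 14 (24.2% ± 9.19, SD, n = 3), so that replicate 3, at 15.9%, fell just under its protein-coding background.

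Leaving out replicate 1 had the largest effect. When the IDR list was replaced by pooled candidates matched to a strongest candidate of both other replicates, 7 respiratory chain genes remained, all of them subunit genes. This is 7.95% of the 88 genes and 11.1% of the subunit genes, beside 10.8% of protein-coding genes in the same set of peaks. Without replicate 2 the subunit share was 17.5% against 10.5%, and without replicate 3 it was 22.2% against 12.6%. Without replicate 1 the subunit share was thus close to that of protein-coding genes, and the part of depth or of any other property of that replicate was not tested.

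**Figure D2:**
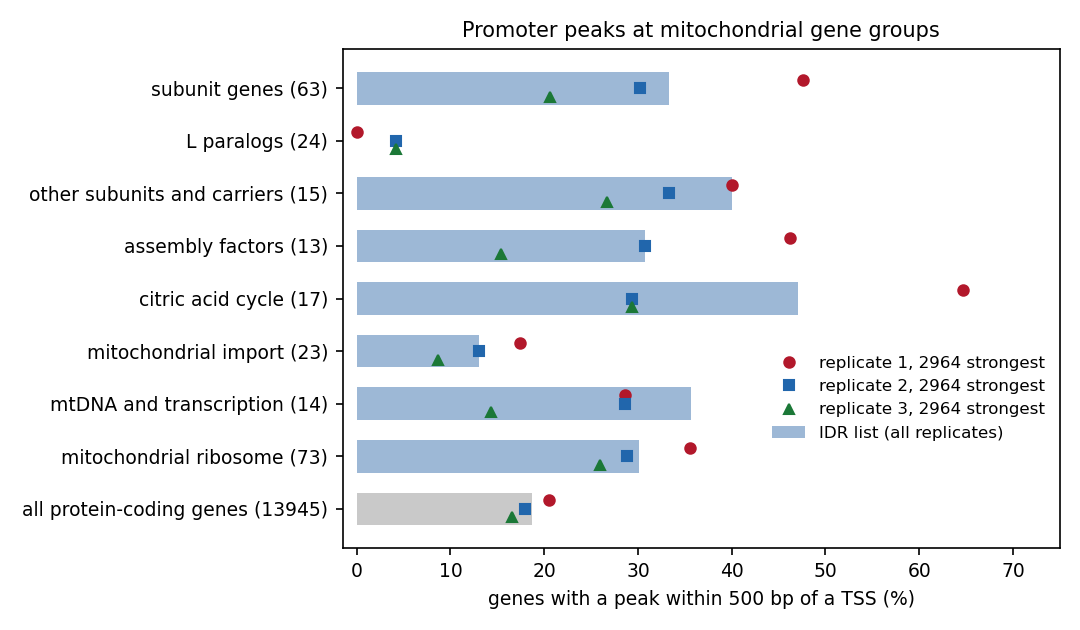
Percentage of genes with a peak within 500 bp of a TSS, by gene group (number of genes in parentheses); bars use the IDR list and symbols use the 2964 strongest candidates of each replicate. Subunit genes reach 33.3% in the IDR list and 47.6%, 30.2% and 20.6% in replicates 1, 2 and 3, the L paralogs stay at 0 to 4.17%, and all protein-coding genes (grey) are at 18.7%.

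The arrangement of neighbouring genes moved with these shares. Of the 63 subunit genes, 37 (58.7%) had a protein-coding gene on the opposite strand with a TSS within 500 bp of their own, against 27.8% of protein-coding genes. Among protein-coding genes with such a neighbour 35.2% had an IDR peak, and among those without one 12.4%. Subunit genes with a neighbour had an IDR peak in 15 of 37 cases (40.5%), and those without in 6 of 26 (23.1%). The margin over protein-coding genes was thus smaller with a neighbour than without. No interval was computed within these groups, and the counts of subunit genes are small. The comparison of all 63 subunit genes with all protein-coding genes makes no allowance for this arrangement, which accompanies a higher share in both. In the replicates, subunit genes with a neighbour stood at 54.1%, 40.5% and 24.3% against 41.6%, 33.1% and 28.4% of protein-coding genes, so the order turned in replicate 3. Without a neighbour they stood at 38.5%, 15.4% and 15.4% against 12.3%, 12.1% and 12.0%. These shares stand for 10, 4 and 4 of 26 subunit genes. They were above in all 3, but outside replicate 1 by little and on few genes. A pooled candidate lay at the promoter of 94.6% of subunit genes with a neighbour, against 81.8% of protein-coding genes with a neighbour. Without a neighbour these shares were 88.5% and 46.1%. The split by neighbour was chosen after seeing the data. Subunit genes also more often had more than 1 TSS (50.8% against 26.5%), which gives a gene more windows in which a summit can fall; with only the 5′ end of each gene record as TSS, the subunit share was again 33.3%, against 17.0% of protein-coding genes.

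Replicate values of a gene are given for the candidate matched to its pooled summit, and a candidate elsewhere at the promoter is named as such. ND-MWFE, an accessory subunit of complex I, had the strongest member peak, at 13158262 to 13158665 on chromosome arm 2R, with a pooled signal of 308 and rank 203. Its signals in replicates 1, 2 and 3 were 154, 93.4 and 65.9, at ranks 65, 310 and 1376 of their lists. The summit lay at -202 bp from the ND-MWFE TSS, negative meaning upstream, in an intron of TppII (tripeptidyl peptidase) and 19 bp from a TppII TSS on the other strand. ATPsynF, a membrane subunit of ATP synthase, had the fourth strongest and the only narrow member peak (111 bp wide against the usual 404 bp), at 24599823 to 24599933 on the same arm. Its pooled signal was 238, with 71.1, 61.6 and 113 in the replicates (ranks 663, 1109 and 225), and the summit lay 63 bp from the TSS of both ATPsynF and CG3548. Both genes were among the 2964 strongest in every replicate.

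Complex IV supplied the second and the third strongest member peaks. COX6B, a nuclear subunit of cytochrome c oxidase, had a pooled signal of 307 (rank 206) at 19744165 to 19744568 on X. The signals were 95.6, 89.6 and 106, at ranks 274, 359 and 293, the most even ranks of any member among the 10 strongest. The summit lay between genes, at -32 bp from COX6B and within 64 bp of the starts of CG18809, CG33932 and Rpp20. COX5A, another nuclear subunit, had a pooled signal of 276 (rank 299) at 11819366 to 11819769 on 3R. Its replicate signals were 95.2, 113 and 52.2, at ranks 281, 167 and 2643, so that replicate 3 placed it far lower than the others did. The summit lay in the annotated 5′ untranslated region of COX5A, with glo, an RNA-binding protein gene, starting 148 bp away on the other strand.

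ATPsynC encodes the subunit that forms the rotor ring of ATP synthase. Its peak at 31219477 to 31219880 on 3R had a pooled signal of 235 (rank 510) and replicate signals of 81.9, 66.8 and 97.1 (ranks 429, 887 and 407). No other gene started within 500 bp of that summit, which lay at -49 bp from the gene. ND-B8, a small accessory subunit of complex I, had a pooled signal of 204 (rank 765) at 4454315 to 4454718 on 2L. Its replicate signals were 72.3, 63.8 and 70.5 (ranks 635, 1023 and 1136), and the summit was closer to the start of Secp43 (64 bp) than to that of ND-B8 (-109 bp). ND-B17, a further accessory subunit of complex I, reached 175 in the pooled list (rank 1152) at 15750955 to 15751358 on 2L. It had replicate signals of 56.2, 42.2 and 76.9 (ranks 1181, 2761 and 874), with no other gene start near its summit. These 3 genes complete the 7 that were among the strongest candidates in all 3 replicates, together with ND-MWFE, ATPsynF, COX6B and COX5A.

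The last 3 of the 10 strongest were complex I genes, each outside the 2964 strongest of 1 replicate. ND-ASHI, an accessory subunit, reached 165 (rank 1338) at 6679137 to 6679540 on X, with replicate signals of 59.0, 39.4 and 67.1 (ranks 1043, 3226 and 1307). Its summit lay in an intron of Fum1, the gene of the citric acid cycle enzyme fumarase, 301 bp from a Fum1 TSS and at -221 bp from ND-ASHI, so the same peak is counted for both genes. ND-51 encodes the core subunit that binds NADH, and reached 161 (rank 1413) at 6062671 to 6063074 on 2L. It had 66.1 in replicate 1, 65.1 in replicate 2 and no matched candidate in replicate 3, where another candidate at its promoter had 44.3 (rank 4195). ND-20, a core iron-sulfur subunit, reached 145 (rank 1816) at 15986689 to 15987092 on X. Its signals were 48.8, 22.5 and 65.7, at ranks 1616, 11813 and 1384, so that replicate 2 held it as a weak candidate only.

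The other 11 genes with an IDR peak had pooled signals between 118 and 143. In complex I these were ND-PDSW (143), ND-B17.2 (139) and ND-42 (130), and in complex II SdhC (141), which encodes a membrane anchor of succinate dehydrogenase. Complex III contributed UQCR-C2 (124), a core protein, and UQCR-Q (120), and complex IV contributed COX8 (130) and COX7B (118). Complex V contributed ATPsynB (142) and ATPsynD (134), both of the stalk that holds the enzyme's head still, and ATPsynCF6 (127). Ranks in single replicates varied most here: ND-PDSW had rank 23510 in replicate 1 and rank 830 in replicate 2, ATPsynCF6 rank 1035 in replicate 2 and rank 20768 in replicate 3, and COX7B rank 1816 in replicate 2 and rank 16917 in replicate 3. All 3 were thus in the IDR list although 1 replicate held them far down its own list.

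Across the 21 genes, 7 were among the strongest candidates of all 3 replicates, 10 of 2 replicates and 4 of 1 replicate. Replicate 1 held 19 of them among its strongest, replicate 2 held 15 and replicate 3 held 11. Their median rank percentile, where 100 is the strongest candidate of a list, was 94.3, 93.9 and 91.1, beside 94.5, 94.9 and 94.7 for all IDR peaks. As peaks they were no stronger than others: the median signal of the 22 member peaks was 142 against 161 for 2029 IDR peaks at protein-coding promoters, and 40.9% against 52.4% lay above the middle of the IDR list.

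**Figure D3:**
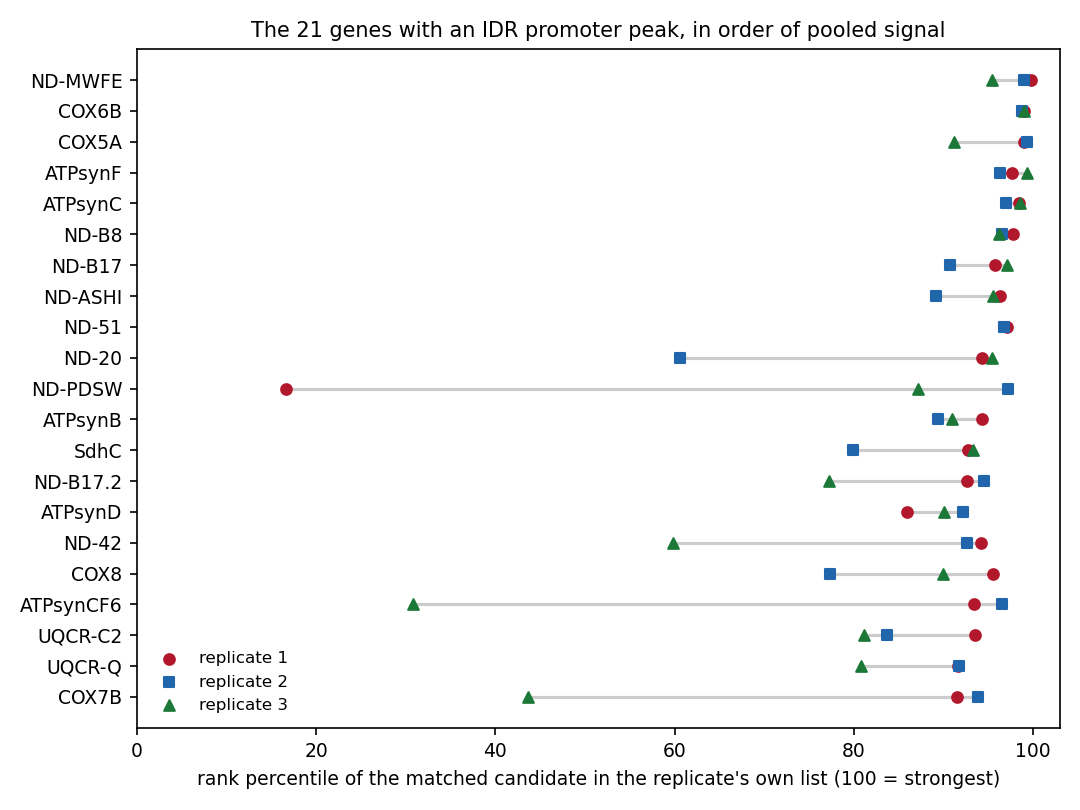
Rank percentile of the matched candidate in each replicate's own list (100 is the strongest) for the 21 respiratory chain genes with an IDR peak, ordered from the highest pooled signal (ND-MWFE, top) to the lowest (COX7B); grey lines join the replicates. The first 7 genes lie above 90 in every replicate, whereas ND-PDSW falls to 16.6 in replicate 1 and ATPsynCF6 to 30.8 in replicate 3.

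The IDR list ended at a signal of 115, and 5 members lay just under it. SdhA, the flavoprotein subunit of succinate dehydrogenase, had a pooled signal of 112 (rank 3120), and the strongest candidates anywhere at its promoter had 29.3, 26.5 and 37.6 in the replicates (ranks 4123, 8112 and 6372). ATPsyngamma, the central shaft of ATP synthase, had 107 (rank 3410) and UQCR-14 also 107 (rank 3420). UQCR-C1, the other core protein of complex III, had 106 (rank 3480), and SdhD, the second membrane anchor of complex II, had 102 (rank 3721). Just inside the list stood COX7B (118, rank 2810) and UQCR-Q (120, rank 2740). The step from inside to outside was therefore small: in replicate 1 the signal of SdhD was 51.5 (rank 1431), above the 40.2 of COX7B (rank 2386), whereas COX7B was above SdhD in replicate 2 (50.7 against 28.2) and replicate 3 (25.1 against 22.4).

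The subunit genes with no pooled candidate were ND-13A, ND-19, ND-49, ND-B14 and UQCR-11. ND-49 and ND-B14 also had none in any single replicate, whereas UQCR-11 had a promoter candidate of signal 51.6 (rank 1424) in replicate 1. Among the nuclear core subunits of complex I, a grouping made after seeing the values, ND-51 and ND-20 had IDR peaks. The others were weaker: ND-24 had 92.6 (rank 4534), ND-30 had 72.3 (rank 7604), ND-23 had 54.1 (rank 14533) and ND-75 had 38.1 (rank 28766), and ND-49 had none. Core and accessory subunits of the same complex were thus found at both ends of the list.

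Most L paralogs had no candidate. Their 5 pooled candidates were at COX7AL2 (77.3), COX4L (75.1), SdhBL (59.8), COX7AL (52.1) and ND-B14.5AL (43.6), and the other 19 had none. These 5 were not below all subunit genes: ND-B18 (38.0), ND-75 (38.1), ND-B14.5B (39.6) and ND-MLRQ (40.3) had weaker candidates. COX7AL2 was the only paralog with a candidate among the 2964 strongest of any replicate, with 41.8 anywhere at the promoter in replicate 2 (rank 2813) and 53.2 in replicate 3 (rank 2512). The summits at COX4L, SdhBL and COX7AL lay 436, 319 and 446 bp downstream of the TSS, inside coding sequence, and not at the start. Parent genes were matched by symbol, except levy, cype and sun, which lie outside the naming rule and were assigned by hand. Of the 21 parents, 19 had a candidate and 5 an IDR peak, beside 56.0% and 18.7% of protein-coding genes. The 5 were ATPsynCF6, ND-20, ND-51, SdhC and levy (193), the last a complex IV gene. COX4L, however, lay above its parent COX4 (75.1 against 65.6), and SdhBL was close to SdhB (59.8 against 60.9). Of the paralogs 3 (12.5%) had an opposite-strand neighbour, against 37 of 63 subunit genes.

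At the 21 promoters the strongest summit lay upstream of the nearest TSS of the gene in 20 cases (95.2%), against 81.7% of 2609 protein-coding genes with an IDR peak. UQCR-C2 was the exception, with its summit 5 bp downstream. At COX5A and UQCR-Q the summit was upstream of the nearest TSS but downstream of the gene's first TSS, in its own 5′ untranslated region. The median position was -63.0 bp (range -350 to 5), beside -68.0 bp for protein-coding genes. In single replicates the median was taken over all respiratory chain genes with a promoter candidate among the strongest of that replicate. These were 30, 20 and 14 genes, not the same set as the 21. Their medians were -80.5, -47.0 and -68.0 bp, a mean of -65.2 ± 16.9 bp (SD, n = 3). That spread therefore includes the change of genes between replicates. The medians of the 21 genes and of protein-coding genes differed by less than this SD. Summits lay between genes in 15 of the 21 cases.

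Sharing a promoter was common among them. A protein-coding gene on the opposite strand had a TSS within 500 bp of the summit at 15 of the 21 genes (71.4%), against 51.2% of protein-coding genes with an IDR peak. Counted over peaks, 16 of 22 member peaks (72.7%) lay near TSSs on both strands, against 33.1% of 2029 promoter peaks. These shares are not like for like. A peak near several gene starts is more likely to be picked as a member peak, whereas each of the 2029 peaks counts once. Part of that gap is therefore built in. The measure over genes counts a shared peak once for each of its genes on both sides, and is the closer comparison. In 14 of 21 cases the respiratory chain gene had the start nearest to the summit, with ties counted for it. Ties were at COX6B, ATPsynF and ND-51, where CG18809, CG3548 and CG13994 started equally near. In the other 7 cases a neighbour had the nearest start. Examples were msl-2, a subunit of the dosage compensation complex, 15 bp from the summit at ND-PDSW, and Tctp, 48 bp from that at SdhC. Another was mRpL55, a mitochondrial ribosomal protein gene, 4 bp from the summit at ATPsynD. The summit at ND-42 lay in the 5′ untranslated region of Cchl, a gene for cytochrome c heme lyase, and Sec3, of the exocyst, started 72 bp from that at COX7B. For such pairs the lists cannot tell which of the genes a peak belongs to.

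**Figure D4:**
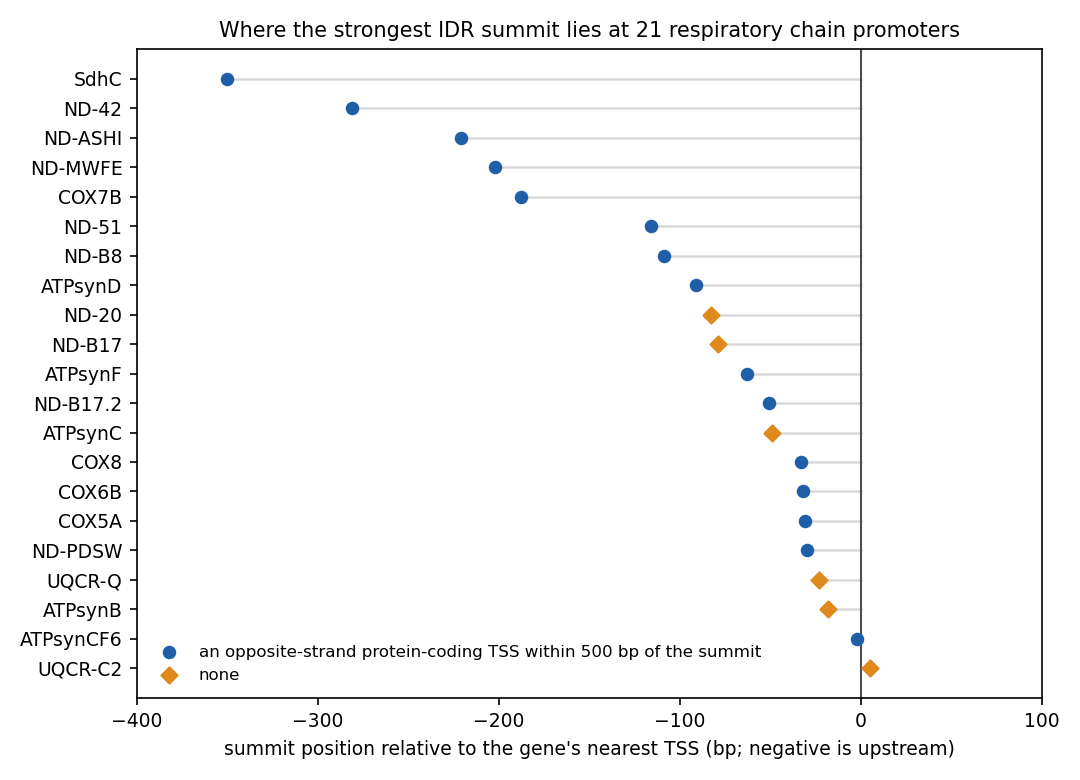
Position of the strongest IDR summit relative to the nearest TSS of each of the 21 genes (bp, negative is upstream); circles mark summits with an opposite-strand protein-coding TSS within 500 bp and diamonds those with none. Circles make up 15 of the 21, and the 5 most distant summits, from SdhC (-350) to COX7B (-188), are all circles.

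Short sequence words known from fly promoters were searched within 100 bp of each summit on both strands. Motif 1 of fly core promoters, searched as GGTCACAC, is a housekeeping promoter word, and was found at 6 of 22 member summits (27.3%) against 203 of 2029 IDR promoter summits at protein-coding genes. Over promoters themselves (250 bases before to 50 after a TSS) it was in 15 of 63 subunit genes (23.8%), 1 of 24 paralogs (4.17%) and 7.70% of protein-coding genes. The sites at 5 of the 6 summits are printed here. Among the words searched, this had the widest gap between member summits and other promoter summits. The word is in capitals with 10 bases on either side, read on its own strand, and lies 7 to 67 bp from the summit. The site not printed was at the second IDR peak of ND-MWFE, 28 bp downstream of the TSS and 29 bp from that summit. Coordinates are of dm6.
ND-B17 (chr2L:15751076-15751103, minus strand): ttaagagtgcGGTCACACtggcggcaac
ND-PDSW (chr2L:3466120-3466147, minus strand): tcgaggtagtGGTCACACctatgccgca
ND-PDSW, second copy (chr2L:3466070-3466097, minus strand): ggcacactgcGGTCACACtggcttcgct
ATPsynD (chr3R:19094885-19094912, minus strand): ccctcgggtcGGTCACACtatcagctgc
UQCR-C2 (chr3L:16584233-16584260, minus strand): gctccaaaatGGTCACACcgagtaccag
UQCR-Q (chr3L:17475068-17475095, plus strand): gcccgtccacGGTCACACtggttgagac

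The word was not limited to promoters with a peak. It was in 7 of 21 subunit promoters with an IDR peak (33.3%) and 8 of 42 without (19.0%), against 13.5% and 6.38% of protein-coding promoters. It was also in subunit promoters both with an opposite-strand neighbour (21.6% against 14.5%) and without (26.9% against 5.09%). A word match is a description of letters, not a binding site.

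The other words set the member summits less apart. The DNA replication-related element, searched as TATCGATA and bound by the factor Dref, was at 1 member summit, that of SdhC (4.55%), against 11.5% of IDR promoter summits, although 9 of 63 subunit promoters (14.3%) held it against 9.36% of protein-coding promoters. Its shorter part CGATA, the word of the boundary factor BEAF-32, was at 11 of 22 summits, beside 46.4% of IDR promoter summits, and every TATCGATA also counts as a CGATA. The TATA box word TATAAA was at 22.7% of member summits against 18.6%. Runs of 7 A bases were at 9.09% against 16.1%, and the E-box was at none against 3.45%. Windows around 4 summits are shown, trimmed to sequence outside annotated exons, on the strand of the gene, with the words in capitals on whichever strand they fall. COX6B and ATPsynC are the strongest of those shown, ND-B8 has its summit near the start of another gene, and SdhC holds the only TATCGATA.
COX6B (chrX:19744336-19744427, minus strand, CGATA): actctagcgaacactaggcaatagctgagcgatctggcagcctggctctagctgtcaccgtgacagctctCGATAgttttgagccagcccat
ATPsynC (chr3R:31219631-31219739, minus strand, CGATA): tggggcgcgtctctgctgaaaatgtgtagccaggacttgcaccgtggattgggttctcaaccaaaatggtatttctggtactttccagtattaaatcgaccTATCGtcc
ND-B8 (chr2L:4454457-4454577, plus strand, CGATA): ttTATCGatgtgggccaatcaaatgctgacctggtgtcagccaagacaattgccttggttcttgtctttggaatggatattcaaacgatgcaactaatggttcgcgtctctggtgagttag
SdhC (chr3R:11210139-11210246, minus strand, TATCGATA): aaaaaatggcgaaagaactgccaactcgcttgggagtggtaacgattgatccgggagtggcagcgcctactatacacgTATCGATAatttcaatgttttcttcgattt

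The NRG element, a palindromic word described in fly genes for respiratory chain subunits, was at none of the 22 member summits and in none of the 63 subunit promoters as searched, against 0.158% of protein-coding promoters. Its core was at none of the summits (1.68% of IDR promoter summits) and in 5 subunit promoters (7.94% against 5.18%). The consensus of NRF-1, the mammalian regulator of respiratory chain genes, was at none of the member summits (0.296% of IDR promoter summits). No match says only that these letters are not in these windows. The sequence around member summits was somewhat poorer in G and C, with a median of 39.1% (range 30.8 to 53.2%) against 42.3% for IDR promoter summits.

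Related gene groups, counted from lists of symbols, are set here beside the 18.7% of protein-coding genes. Subunits and electron carriers outside the naming rule had an IDR peak at 6 of 15 genes (interval 19.8 to 64.3%), led by blw, the alpha subunit of ATP synthase (236), levy (193) and Cyt-c-p, cytochrome c (176). The list of assembly factors had one at 4 of 13 (30.8%). CIA30, an assembly factor of complex I, was at 415 above every respiratory chain subunit gene, followed by Ttc19 (271). The list also counted bsf (125), an RNA-binding protein gene that is not an assembly factor in the strict sense. The citric acid cycle had one at 8 of 17 (47.1%), led by the aconitase gene mAcon1 (260), Idh3b (181) and Fum1 (165, the peak shared with ND-ASHI). Genes for mitochondrial DNA upkeep and transcription had one at 5 of 14 (35.7%), led by PolrMT (201), mtSSB (185) and PolG2 (184). Genes for import of proteins into mitochondria had the lowest share, at 3 of 23 (13.0%, interval 4.54 to 32.1%): Tim10 (165), Hsc70-5 (156) and Tom7 (116). The protein-coding share lies inside that interval, and inside those of assembly factors (12.7 to 57.6%) and of mitochondrial DNA and transcription (16.3 to 61.2%). The import list kept genes of like symbol, such as Tim17b, Tim17b1 and Tim17b2, whereas L paralogs were counted apart from the subunit genes.

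Of the ribosomal protein genes, those of the cytoplasmic ribosome stood apart from the subunit genes. Those of the mitochondrial ribosome had an IDR peak at 22 of 73 genes (30.1%, interval 20.8 to 41.4%), led by mRpL41 (777), mRpS23 (765) and mRpS10 (759), and those of the cytoplasmic ribosome at 57 of 92 (62.0%, interval 51.7 to 71.2%), led by RpL7 (536), RpS27 (535) and RpL23A (527). The interval of the cytoplasmic group lies above that of the respiratory chain subunit genes (22.9 to 45.6%). An opposite-strand neighbour was present at 72.6% of mitochondrial and 39.1% of cytoplasmic ribosomal protein genes, against 27.8% of protein-coding genes. The shares of these groups were not split by neighbour. Among listed regulators, 6 of 10 had an IDR peak, among them ERR, an estrogen-related receptor (221), Dref (213) and ewg, the fly relative of NRF-1 (163). HmgD itself had an IDR peak of signal 148 (rank 1735) at its own promoter. By arm, members with an IDR peak numbered 5 of 16 on 2L, 2 of 17 on 2R, 5 of 20 on 3L, 6 of 20 on 3R, 3 of 13 on X and 0 of 2 on 4, beside 17.7%, 18.5%, 18.9%, 20.3%, 17.6% and 17.5% of protein-coding genes in the same order of arms. These counts are too small to set arms apart.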

How the data were processed

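DNA was sonicated to fragments of 200 to 800 bp, per the labels. The deposited narrowPeak lists on dm6 were read (3 replicate candidate lists, 1 pooled candidate list and 1 IDR list). The signal of each peak was made by the authors and deposited per peak, and the −log10 q values the authors deposited were not used. The deposited descriptions name a control file as an input, which is not used here. No source used here names the aligner, the peak caller or the threshold of the IDR step. Lists on dm3 were not used.

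Coordinates are 1-based and genes come from Ensembl release 115 (genome Release 6). Summits were paired across lists when each was the nearest of the other, at up to 200 bp. The 2964 strongest candidates of each replicate gave the spread (n = 3). For each omitted replicate, pooled candidates matched to a strongest candidate of both others stood in for the IDR list, because the IDR step was not repeated. Wilson intervals (95%) cover counting error over genes only. No test was run: groups are described by counts and medians beside all protein-coding genes.

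The members, gene lists and words were chosen with earlier results of these data known. Genes named are the members with an IDR peak (the 10 strongest in full), the 5 just under it, members with no candidate, L paralogs and their parents, promoter neighbours, up to 3 leading genes of each list, and HmgD. In the annotation 15 of 19 symbols of other subunits and carriers, 13 of 25 of assembly factors, 17 of 21 of the citric acid cycle, 23 of 28 of import, 14 of 17 of mitochondrial DNA and transcription and all 10 regulators were matched. Other promoter windows, peak sets, TSS sets, ways to assign a peak, search windows and leaving out each replicate were tried. The counting of peaks at promoters was tested with simulated peaks placed near annotated gene starts. Matching of summits between lists and the word searches were not tested in this way. Python 3.11.15, numpy 2.4.6, pandas 2.3.3, SciPy 1.17.1 and matplotlib 3.10.9 were used.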

Additional observations from a re-analysis of the deposited data

How the results depend on the processing

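The share of respiratory chain genes with an IDR peak (23.9%) moved by less than the replicate SD in several settings. These were promoter windows of 250 and 1000 bp, 1 TSS per gene, overlap of the interval, and a peak counted only for the nearest TSS. The last gave 17.0%, against 13.9% of protein-coding genes. Among the L paralogs, 1 gene had an IDR peak with the 1000 bp window and 1 with interval overlap, and none in the other settings. The share of all 88 genes was 10.2% with the stronger IDR peaks alone and 7.95% with a consensus of the strongest candidates of all replicates, beside 10.4% and 8.81% of protein-coding genes. The subunit share (33.3%) was 14.3% and 11.1% in the same sets. Leaving out each replicate gave 7.95 to 15.9% for all 88 genes and 11.1 to 22.2% for subunit genes. Every set with fewer peaks lowers all shares, so the protein-coding value of the same set is the reference. The subunit share was above it in each, but in some sets by little and on few genes. Without replicate 1 it was 7 of 63 genes (11.1%), about the same as the 10.8% of protein-coding genes. In the consensus it was also 7 of 63, beside 8.81%. The median offset was -33.0 bp when a peak counted only for the nearest TSS. The share with a pooled candidate (72.7%, against 56.0% of protein-coding genes) was 59.1% and 80.7% with windows of 250 and 1000 bp, against 45.5% and 64.8%. It was 60.2% with the stronger pooled candidates, against 44.6%, and 77.3% with interval overlap, against 60.6%. With fewer strongest candidates per replicate, the mean share over replicates was 11.0%, beside 10.2% of protein-coding genes. GGTCACAC was at 18.2% of member summits within 50 bp and at 31.8% within 200 bp, with an SD over replicates of 11.1 percentage points. Other words also depended on the window. In the same order, TATAAA was at 13.6% and 40.9%, runs of A bases at 0% and 27.3%, and CGATA at 31.8% and 54.5%. The E-box and the core of the NRG element, absent within 100 bp, were at 4.55% and 9.09% within 200 bp. Shares of other promoter summits are not given for these windows. No depth is known, so how far depth limits the weaker candidates cannot be said. No paired analysis was possible because there is only 1 group.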
